A study of Mus musculus with 32 samples.

Results

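The 40 genes described here are Polycomb and trithorax chromatin regulators, taken by symbol from the 24421 rows of the raw gene count table, where each of the 40 symbols was found. By the roles used to order them, 24 belong to the Polycomb group or its partner complexes, 2 encode enzymes that remove the Polycomb mark, and 14 belong to the trithorax group or work with it. Expression was measured by RNA sequencing of bone marrow fractions sorted from female C57BL/6 mice of 10 weeks (young) and 20 months (aged), with 2 libraries in each of 16 groups. The study asked how the transcriptome of hematopoietic stem and progenitor cells changes with age. No transgene or treatment is named for any group, so that the groups differ in fraction and age.

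The hematopoietic stem cells (HSCs) and the multipotent progenitors MPP1 to MPP4 were all gated as lineage negative, Sca-1 positive and c-kit positive. Within that gate HSCs were CD34- CD150+ CD48- Flt3-, MPP1 were CD34+ CD150+ CD48- Flt3-, MPP2 were CD150+ CD48+ Flt3-, MPP3 were CD150- CD48+ Flt3- and MPP4 were CD150- CD48+ Flt3+. Granulocyte-macrophage progenitors (GMPs) were Sca-1 negative, FcgR+ and CD34+, megakaryocyte-erythrocyte progenitors (MEPs) were Sca-1 negative, FcgR- and CD34-, and common lymphoid progenitors (CLPs) were positive for the IL-7 marker with low Sca-1 and low c-kit. Each fraction is a surface gate and can hold more than 1 kind of cell. In its description of the design the study states that marrow of an age was pooled before it was sorted in duplicate, so the p-values below measure the spread between duplicates, which may be technical.

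Polycomb proteins keep genes silent through 2 kinds of complex. Polycomb repressive complex 2 (PRC2) methylates histone H3 at lysine 27 through Ezh1 or Ezh2 with Eed and Suz12, and Polycomb repressive complex 1 (PRC1) ubiquitinates histone H2A through Ring1 or Rnf2 and binds the methyl mark through Cbx proteins. Trithorax proteins act on the other side, as methyltransferases of histone H3 lysine 4 (the Kmt2 and Setd1 enzymes with Ash2l, Wdr5 and Rbbp5) and as their partners. In blood Bmi1 and Ezh2 are known for their part in stem cell self-renewal, Kmt2a as the gene broken in mixed lineage leukemia, and Asxl1 and Ezh2 as genes mutated in myeloid neoplasms.

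Library totals ranged from 11237384 to 17723245 counts with a median of 13489609.5, and all 40 genes passed the filter on low counts, which 14154 genes passed. Levels are given as CPM, which is the count scaled to library size after the TMM correction for differences in RNA composition between libraries. The fold change between groups is on the log2 scale with its standard error (SE) from an edgeR fit of all 32 libraries, and a gene is called higher or lower at an adjusted p under 0.01. In every group the duplicates differed by more than sampling noise, with a chi-square of their counts over its degrees of freedom from 4.59 in young MPP2 to 18.6 in aged CLPs and 19.0 in aged HSCs. In bulk samples, fewer cells that express a gene and less RNA per cell cannot be told apart. The 4 GMP markers summed to 86081 to 87194 CPM in young and 86470 to 86663 CPM in aged GMPs. They are Fcgr3, Mpo, Elane and Ctsg, of which only Fcgr3 stands for a protein of the gate. Of the genes of the gates, Flt3 had its highest young level in MPP4. Ly6a, which encodes Sca-1, went against the low Sca-1 gate of CLPs in aged libraries, with a mean of 214 CPM against 35.2 CPM in young CLPs and 209 CPM in aged MPP4. Young CLPs also carried basophil and mast cell transcripts (4 markers, 1683 to 1733 CPM against 7.64 to 12.0 CPM in aged CLPs, where Prss34 was at 0), and young MEPs carried B lineage transcripts (7 markers, 182 to 193 CPM against 0.430 to 1.22 CPM in aged MEPs, where 5 of the 7 were at 0).

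Promoters are shown for 4 genes on which the results turn: Ezh2 and Eed, which were higher in aged MPPs, and Ezh1 and Cbx7, which were lower there. Each run of 300 bases is the RefSeq window of build GRCm38.p6, from 250 bases before the annotated start to 50 after it, read 5′ to 3′ on the gene's own strand. Capitals mark the E2F core letters TTCCCGC or TTGGCGC and the CCAAT box letters CCAAT, found on either strand.
Ezh2 (chr6:47594981-47595280, minus strand): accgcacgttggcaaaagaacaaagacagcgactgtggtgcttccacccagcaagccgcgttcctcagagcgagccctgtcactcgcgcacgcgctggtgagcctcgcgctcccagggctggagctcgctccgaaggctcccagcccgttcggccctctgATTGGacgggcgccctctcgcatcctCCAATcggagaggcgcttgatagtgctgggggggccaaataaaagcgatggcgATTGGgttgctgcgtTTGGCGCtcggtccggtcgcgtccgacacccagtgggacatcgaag
Eed (chr7:89980927-89981226, minus strand): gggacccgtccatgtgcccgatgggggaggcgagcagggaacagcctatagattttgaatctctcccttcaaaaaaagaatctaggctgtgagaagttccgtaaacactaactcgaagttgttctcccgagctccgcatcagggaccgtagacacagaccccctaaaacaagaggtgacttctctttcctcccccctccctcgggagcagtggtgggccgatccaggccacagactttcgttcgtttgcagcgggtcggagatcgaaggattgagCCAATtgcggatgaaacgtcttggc
Ezh1 (chr11:101226414-101226713, minus strand): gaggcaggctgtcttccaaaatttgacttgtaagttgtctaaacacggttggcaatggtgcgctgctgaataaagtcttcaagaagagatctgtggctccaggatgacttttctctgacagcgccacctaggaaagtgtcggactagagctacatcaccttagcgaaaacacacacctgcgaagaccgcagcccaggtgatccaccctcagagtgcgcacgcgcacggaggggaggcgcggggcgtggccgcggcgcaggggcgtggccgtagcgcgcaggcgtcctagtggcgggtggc
Cbx7 (chr15:79932597-79932896, minus strand): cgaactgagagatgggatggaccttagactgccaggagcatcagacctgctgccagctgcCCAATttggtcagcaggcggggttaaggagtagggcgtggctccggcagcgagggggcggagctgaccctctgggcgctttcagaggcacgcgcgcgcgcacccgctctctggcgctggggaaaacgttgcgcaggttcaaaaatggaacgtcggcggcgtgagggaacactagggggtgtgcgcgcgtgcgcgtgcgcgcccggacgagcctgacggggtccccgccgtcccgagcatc
The Ezh2 window holds 1 E2F core and 3 CCAAT boxes, the Eed and Cbx7 windows 1 CCAAT box each and no E2F core, and the Ezh1 window neither set of letters. Of all 32851 windows in the table, 6.81% hold either E2F core and 37.4% hold CCAAT. Of the 43 windows of the 33 genes with an entry, 5 hold an E2F core (Ezh2, Suz12, Asxl1 and 2 of the 3 windows of Pcgf5) and 15 hold CCAAT. The GC box letters GGGCGG, searched on either strand and not put in capitals, are in 33 of the 43 windows and in 35.7% of all windows. Of the windows printed above only that of Cbx7 holds them. Some genes have several windows, which can overlap. These are matches of letters and not sites of binding. Kmt2b, Pcgf1, Ash1l, Kdm6b, Cbx2, Ash2l and Setd1b had no entry.

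In young marrow, the methyltransferases of PRC2 were ordered in opposite ways along the fractions. Ezh1 was at 103 and 104 CPM in the 2 young HSC libraries. The young MPP1 libraries had 58.7 and 66.1 CPM of it, those of MPP2 48.4 and 45.2, of MPP3 57.6 and 68.9 and of MPP4 67.8 and 66.9, while GMPs had 30.2 and 40.9, MEPs 29.0 and 20.5 and CLPs 51.7 and 51.5 CPM. Ezh2 was at 22.7 and 18.7 CPM in young HSCs. The young MPP1 libraries had 57.5 and 58.7 CPM, those of MPP2 100 and 93.4, of MPP3 78.4 and 81.3 and of MPP4 91.3 and 98.6, while GMPs had 107 and 111, MEPs 178 and 163 and CLPs 198 and 198 CPM. Young HSCs were therefore the highest fraction for Ezh1 and the lowest for Ezh2, and no duplicate of another fraction overlapped them. Per kilobase of exon the ratio of Ezh1 to Ezh2 was 4.07 and 4.97 in the young HSC libraries, 0.917 and 1.01 in MPP1, and 0.113 to 0.762 in the other young libraries.

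**Figure D1:**
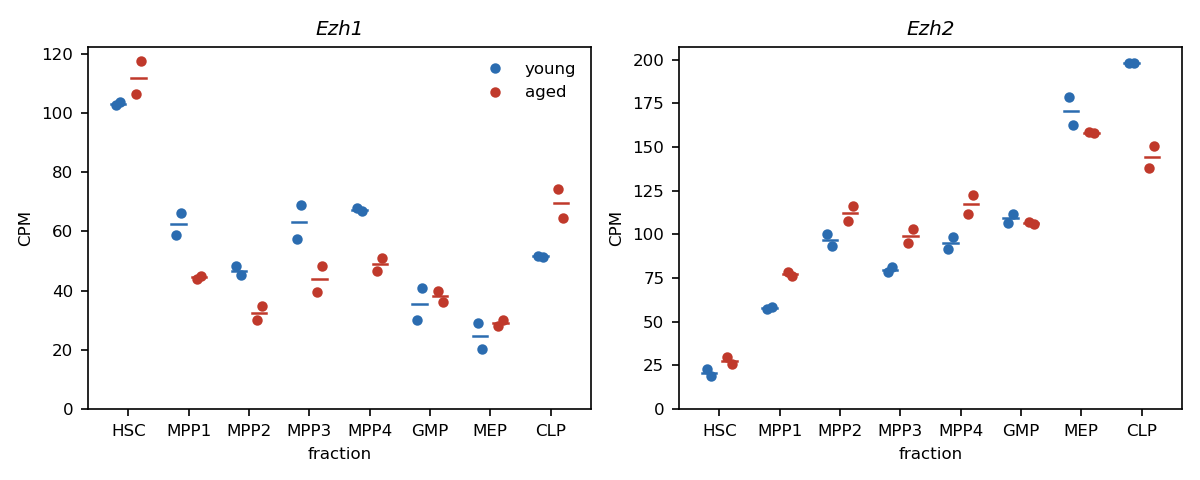
Levels of Ezh1 and Ezh2 in CPM (vertical axes, linear from 0) in the 8 fractions, with blue points for the 2 young and red points for the 2 aged libraries and a line at each mean. Ezh1 is highest in HSCs, at 103 to 117 CPM over the 4 libraries, where Ezh2 is lowest, at 18.7 to 29.6 CPM.

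Young HSCs were compared with the mean of young MPP1 to MPP4, the fractions that follow HSCs in the usual scheme of differentiation. Of the 40 genes, 4 were called higher in HSCs and 10 lower, where 19.2% and 18.9% of all tested genes were called higher and lower. Cbx7, the PRC1 reader of the methyl mark known from embryonic and adult stem cells, was at 54.6 and 60.9 CPM in HSCs and between 17.1 and 27.8 CPM in the 8 young MPP libraries (log2 difference 1.45 ± 0.12 SE, edgeR adjusted p 1.15e-09). Cbx6, another reader of the same family, was at 352 and 337 CPM in HSCs and 154 to 225 CPM in MPPs (0.98 ± 0.08, edgeR adjusted p 2.60e-09). The remaining calls in this direction were Ezh1 (0.80) and Ring1 (0.36). The Ring1 call was lost without young HSC replicate 2.

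On the lower side in HSCs were all 3 other core subunits of PRC2. Ezh2 had the largest difference (-1.97 ± 0.08, edgeR adjusted p 1.68e-14), at 22.7 and 18.7 CPM against 57.5 to 100 CPM in the 8 MPP libraries. Suz12, the subunit that holds the complex together, was at 61.4 and 54.7 CPM in HSCs and 87.4 to 118 CPM in MPPs (-0.82 ± 0.12, edgeR adjusted p 4.82e-06). Eed, which binds the methyl mark and stimulates the enzyme, was at 55.9 and 59.1 CPM against 80.9 to 95.4 CPM (-0.63 ± 0.06). None of these groups overlapped. Dot1l (-0.78), Cbx2 (-0.64), Pcgf6 (-0.53), Pcgf5 (-0.51), Asxl2 (-0.48), Ash2l (-0.45) and Kdm2b (-0.43) were also lower, of which Pcgf6 was lost without young HSC replicate 1 and Asxl2 without either young HSC library. Genes of S phase summed to 2766 to 2784 CPM in young HSCs and 5748 to 8608 CPM in young MPPs (30 genes), and their part in these differences was not tested.

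**Figure D2:**
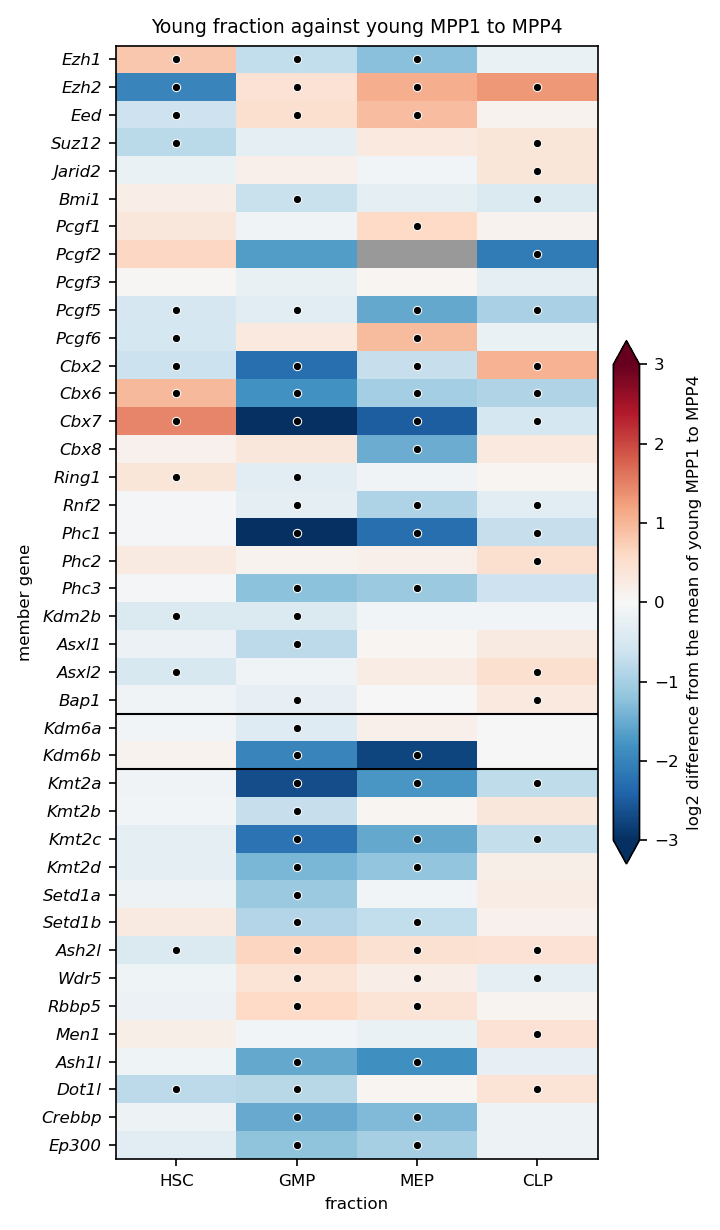
Log2 difference of each of the 40 genes (rows) in young HSCs, GMPs, MEPs and CLPs (columns) from the mean of young MPP1 to MPP4, from -3 in blue to 3 in red, with a dot for an adjusted p under 0.01. Lines separate the 24 Polycomb genes, the 2 demethylases and the 14 trithorax genes. GMPs hold 25 genes called lower, and Pcgf2 in MEPs is grey because it had no count there.

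Young GMPs had lower levels of most of these genes than young MPPs, with 25 called lower and 5 higher, where 32.7% and 32.1% of all genes were called. The median log2 difference of the 40 genes was -0.56, beside -0.10 over all tested genes. Cbx7 was at 2.07 and 2.49 CPM in young GMPs (-3.20 ± 0.19, edgeR adjusted p 1.18e-12) and Phc1, a polymerising subunit of PRC1, at 4.92 and 5.74 CPM against 39.4 to 50.5 CPM in MPPs (-3.12 ± 0.10, edgeR adjusted p 7.74e-17). Kmt2a, the mixed lineage leukemia enzyme, followed with 16.6 and 15.1 CPM (-2.67 ± 0.21). Cbx2 (-2.25) and Kmt2c (-2.23) were next. The other genes called lower were Kdm6b (-1.97), Cbx6 (-1.82), Ash1l (-1.53), Crebbp (-1.52), Kmt2d (-1.37), Phc3 (-1.24), Ep300 (-1.20), Setd1a (-1.12), Setd1b (-0.88), Dot1l (-0.83), Asxl1 (-0.78), Ezh1 (-0.74), Kmt2b (-0.69), Bmi1 (-0.67), Kdm2b (-0.44), Kdm6a (-0.38), Ring1 (-0.31), Pcgf5 (-0.31), Rnf2 (-0.28) and Bap1 (-0.25). Ash2l was at 184 and 183 CPM in young GMPs and 103 to 127 CPM in the young MPP libraries, and Rbbp5 at 103 and 114 against 64.5 to 76.5 CPM, without overlap. The 5 genes called higher were Ash2l (0.64 ± 0.07), Rbbp5 (0.60 ± 0.08), Eed (0.48), Ezh2 (0.43) and Wdr5 (0.40). Ash2l, Rbbp5 and Wdr5, the shared core of the lysine 4 methyltransferase complexes, were higher in young GMPs, where all 4 Kmt2 enzymes were lower. With offsets for exon length and GC content in the fit, Ring1, Setd1b, Kdm2b and Kmt2b in GMPs changed sign and were not called.

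Young MEPs had 18 genes called lower and 7 higher than young MPPs, where 39.5% and 31.3% of all genes were called and the median over all genes was -0.29. Pcgf2, a PCGF subunit of PRC1, had 0 counts in both young MEP libraries and a mean of 1.38 CPM in young MPPs, which against a floor of 3 counts per library is at least 6.79-fold lower. Kdm6b, a demethylase of lysine 27, was at 1.73 and 1.44 CPM against 7.96 to 18.1 CPM in MPPs (-2.75 ± 0.26, edgeR adjusted p 3.51e-09). Cbx7 (-2.48), Phc1 (-2.25), Ash1l (-1.84), Kmt2a (-1.75) and Cbx8 (-1.48) were also lower, as were Kmt2c (-1.53), Pcgf5 (-1.53), Crebbp (-1.32), Ezh1 (-1.26), Kmt2d (-1.19), Phc3 (-1.11), Cbx6 (-1.02), Ep300 (-0.99), Rnf2 (-0.92), Setd1b (-0.74) and Cbx2 (-0.70). On the higher side were Ezh2 (1.08 ± 0.06, edgeR adjusted p 4.90e-13), Pcgf6 (0.95 ± 0.11) at 56.5 and 64.1 CPM against 25.1 to 37.5 CPM in MPPs, and Eed (0.93 ± 0.05). Pcgf1 (0.60), Ash2l (0.47), Rbbp5 (0.40) and Wdr5 (0.21) completed the list.

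In young CLPs 10 genes were called higher and 10 lower, where 28.2% and 25.2% of all genes were called. Ezh2 was 2.45-fold higher than in MPPs (1.29 ± 0.06, edgeR adjusted p 6.03e-14). Cbx2 was at 88.7 and 94.2 CPM against 36.7 to 63.4 CPM in MPPs (1.04 ± 0.07, edgeR adjusted p 4.78e-11). Among the lower genes Pcgf2 had 2 and 5 counts (-2.09 ± 0.63) and Pcgf5, of the noncanonical PRC1, was at 48.1 and 45.5 CPM against 82.9 to 103 CPM (-0.98 ± 0.08). Also higher were Asxl2 (0.48), Phc2 (0.48), Ash2l (0.42), Men1 (0.42), Dot1l (0.41), Suz12 (0.37), Jarid2 (0.36) and Bap1 (0.30), and lower Cbx6 (-0.91), Kmt2a (-0.77), Kmt2c (-0.73), Phc1 (-0.69), Cbx7 (-0.53), Bmi1 (-0.43), Rnf2 (-0.34) and Wdr5 (-0.27). There were 10 calls without young CLP replicate 1 and 12 without replicate 2, in place of 20. Of all calls in these young comparisons, 11 of 14 in HSCs, 20 of 30 in GMPs, 20 of 25 in MEPs and 9 of 20 in CLPs were kept under each of 17 alternatives.

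Changes with age within a single fraction were few among the 40 genes in the stem cell gate. In aged HSCs 1 gene was called higher and 1 lower, where 3.74% and 1.66% of all genes were. Aged MPP1 had 1 higher (background 4.71%) and 0 lower (2.09%), and aged MPP2 had 1 higher (4.49%) and 0 lower (3.31%). In aged MPP3 2 were higher (8.14%) and 5 lower (5.79%), and in aged MPP4 3 were higher (10.3%) and 3 lower (6.27%). Aged GMPs had 9 higher (9.93%) and 4 lower (8.97%), aged MEPs 5 higher (9.08%) and 4 lower (11.7%), and aged CLPs 0 higher (5.71%) and 1 lower (4.73%). At an unadjusted p under 0.05 by edgeR, 1 gene was higher and 8 lower in HSCs, and 2 and 12 in MPP1. The numbers were 3 and 12 in MPP2 and 4 and 7 in CLPs. DESeq2, at an adjusted p under 0.01, called 1 higher and 1 lower in HSCs and 2 and 2 in MPP1. It called 1 and 6 in MPP2 and 0 and 2 in CLPs. The shares of all genes under these 2 settings were not counted, so these numbers are not read as a result about the 40 genes. Of 320 tests of a gene in a fraction 40 were called, which fell on 22 of the 40 genes, and 6 genes were called higher in 1 fraction and lower in another. Over all 14154 genes the calls numbered 764 in HSCs and 963, 1105, 1972 and 2347 in MPP1 to MPP4. There were 2674 in GMPs, 2943 in MEPs and 1478 in CLPs. The numbers over all genes that match the 22 and the 6 were not counted. The 40 calls, the 22 and the 6 are therefore not read as traits of these genes. None of the 40 calls was kept under each of 13 alternatives. Those of Eed in MPP3, of Eed, Phc1 and Kdm2b in GMPs and of Cbx7, Rnf2 and Bap1 in MEPs were kept without each library in turn and lost where only the 4 libraries of the fraction were fitted. The GMP count on the higher side was 22.5% of the 40 and the MPP3 count on the lower side 12.5%. Leaving out 1 library gave 6 to 8 calls in GMPs in place of 13 and 1 to 4 in MPP3 in place of 7, and offsets for exon length and GC content gave 4 higher calls in GMPs. With DESeq2 size factors the share of all calls that was higher was 48.8% in place of 58.4% in MPP3 and 52.0% in place of 62.2% in MPP4.

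**Figure D3:**
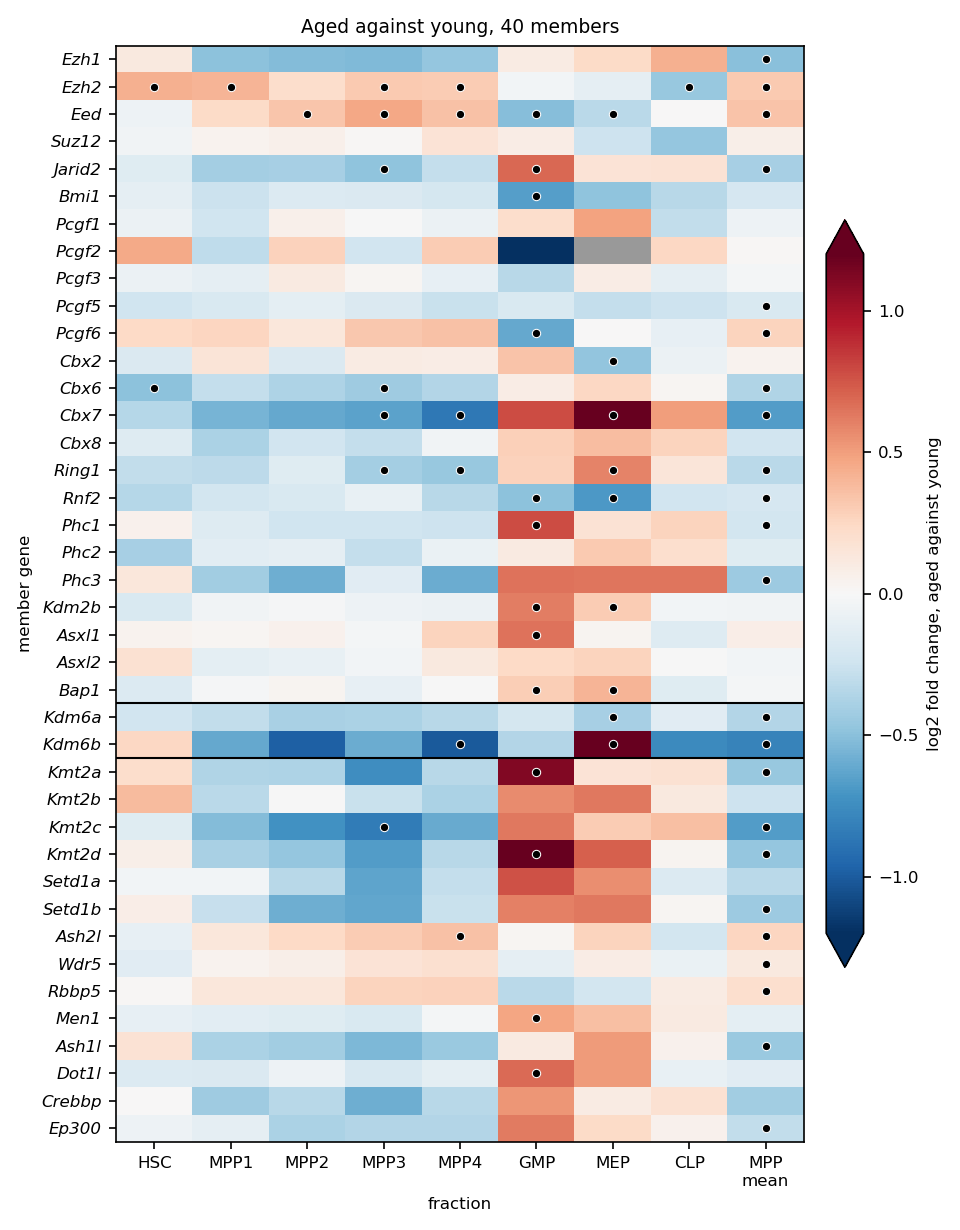
Log2 fold change of aged against young cells for the 40 genes (rows) in each fraction and for the mean over MPP1 to MPP4 (columns), from -1.2 in blue to 1.2 in red, with a dot for an adjusted p under 0.01. Most rows are blue in the MPP columns and red in the GMP and MEP columns, with 30 of 40 below 0 in the MPP mean and 12 and 9 of 40 below 0 in GMPs and MEPs. Of all tested genes 55.5%, 52.9% and 55.6% lie at or below 0 in these 3 columns. Values past the ends of the scale take its end colour, and Pcgf2 in MEPs is grey because no library there had more than 3 counts. Pcgf2 in GMPs rests on 4 and 7 counts in young and 3 and 0 in aged libraries.

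Taken over the 4 MPP fractions, the change with age gave the most calls. The same held over all genes, with 5188 calls in the MPP mean and 963 to 2347 in the single MPP fractions. The fit treated the 4 fractions as independent, although fractions sorted from pooled marrow may share a pool. Over the mean of MPP1 to MPP4, 6 of the 40 genes were called higher in aged cells, where 18.9% of all genes were, and 17 lower, where 17.7% were, so that the share called lower (42.5%) was above the background and the share called higher (15.0%) was not. The median log2 fold change of the 40 was -0.20, beside -0.04 over all genes. Of the 40, 30 lay below 0, where 55.5% of all genes lay at or below 0. Of the 23 calls 13 were kept under each of 24 alternatives: Ezh1, Ezh2, Eed, Jarid2, Cbx6, Cbx7, Ring1, Phc1, Kdm6a, Kdm6b, Kmt2c, Ash1l and Ash2l. Leaving out a library gave 16 to 26 calls. Each of the other 10 calls was lost under at least 1 alternative, Kmt2a without young MPP1 replicate 1 or young MPP4 replicate 1 and Rbbp5 without aged MPP4 replicate 1. Genes of S phase and of G2 and M phase were called higher in the same mean in 30 of 30 and 32 of 34 cases, and their part in the results was not tested.

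Within PRC2, Ezh2 and Eed rose in aged MPPs while Ezh1 fell. Ezh2 went from 57.5 and 58.7 CPM in young to 78.3 and 76.2 CPM in aged MPP1, from 100 and 93.4 to 108 and 116 in MPP2, from 78.4 and 81.3 to 95.0 and 103 in MPP3 and from 91.3 and 98.6 to 112 and 123 in MPP4. Aged and young libraries did not overlap in any of the 4. The mean log2 fold change was 0.31 ± 0.04 (edgeR adjusted p 3.24e-06), and Ezh2 was called in MPP1 (0.41), MPP3 (0.31) and MPP4 (0.30), each of these calls being lost without any 1 of the 4 libraries of the fraction. Ezh2 was also called higher in HSCs, at 22.7 and 18.7 CPM in young and 29.6 and 25.7 CPM in aged libraries (0.42 ± 0.09, edgeR adjusted p 0.00509). That call was lost without young HSC replicate 2 (0.29, edgeR adjusted p 0.128) and without aged HSC replicate 1 (0.32, edgeR adjusted p 0.055). In CLPs the change was in the other direction, from 198 and 198 to 138 and 150 CPM (-0.46 ± 0.08, edgeR adjusted p 4.69e-04), and without aged CLP replicate 1 it was -0.40 and not called (edgeR adjusted p 0.0172). Aged GMPs had 107 and 106 CPM beside 107 and 111 in young ones (-0.03), and aged MEPs 158 and 158 CPM beside 178 and 163 (-0.11).

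Genes of the cell cycle moved beside Ezh2 in several fractions. The 30 S phase genes summed to 5748 to 5819 CPM in young and 8456 to 8511 CPM in aged MPP1, and to 9882 to 9904 CPM in young and 7223 to 8471 CPM in aged CLPs. In aged CLPs 19 of the 30 were called lower and none higher (0 higher at an adjusted p under 0.01 by edgeR). Of all genes 4.73% were called lower in CLPs. In aged HSCs 12 of 30 were called higher, where 3.74% of all genes were. In aged GMPs 14 were lower and 2 higher while 24 of the 34 genes of G2 and M phase were higher. Of all genes 8.97% were lower and 9.93% higher in GMPs. In aged MEPs 10 of the 30 were lower and 0 higher, where 11.7% of all genes were lower, and Ezh2 was not called. Their part in the change of Ezh2 was not tested.

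Ezh1, the methyltransferase of resting and differentiated cells, was at 58.7 and 66.1 CPM in young and 44.1 and 44.8 in aged MPP1, 48.4 and 45.2 against 30.2 and 34.8 in MPP2, 57.6 and 68.9 against 39.4 and 48.4 in MPP3 and 67.8 and 66.9 against 46.5 and 51.2 in MPP4. All 8 aged libraries were below the young libraries of their own fraction. The mean log2 fold change was -0.50 ± 0.07 (edgeR adjusted p 6.76e-06), with -0.46 to -0.53 in the single fractions, none of which was called (0 by edgeR at an adjusted p under 0.01). In aged HSCs Ezh1 was at 106 and 117 CPM (0.12 ± 0.14) and in aged CLPs at 74.4 and 64.5 CPM (0.43 ± 0.14, edgeR adjusted p 0.0414), neither of them called. In GMPs it was at 30.2 and 40.9 CPM in young and 39.9 and 36.3 in aged libraries (0.10), and in MEPs at 29.0 and 20.5 against 28.2 and 29.9 (0.23). The per kilobase ratio of Ezh1 to Ezh2 was 0.917 and 1.01 in young and 0.505 and 0.528 in aged MPP1, and in CLPs stood at 0.234 and 0.233 in young and 0.484 and 0.385 in aged libraries.

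Eed was at 81.0 and 80.9 CPM in young and 96.8 and 93.0 in aged MPP1, 95.4 and 93.2 against 116 and 121 in MPP2, 92.1 and 84.4 against 119 and 125 in MPP3, and 90.4 and 94.9 against 120 and 116 in MPP4. The groups did not overlap in any MPP fraction, and Eed was called in MPP2 (0.33), MPP3 (0.47) and MPP4 (0.35). The MPP2 call was lost without any 1 of its 4 libraries, the MPP4 call without young replicate 1 or aged replicate 1, and the MPP3 call was kept without each library in turn. The mean was 0.34 ± 0.04 (edgeR adjusted p 6.56e-08). In the committed myeloid and erythroid fractions Eed moved the other way. In GMPs it fell from 120 and 129 to 84.6 and 89.9 CPM (-0.51 ± 0.07, edgeR adjusted p 1.70e-05) and in MEPs from 163 and 177 to 141 and 131 CPM (-0.32 ± 0.07, edgeR adjusted p 0.00121). The MEP call was lost without young MEP replicate 2 (-0.27, edgeR adjusted p 0.0196), whereas the GMP call was kept without each library in turn. In HSCs Eed was at 55.9 and 59.1 CPM in young and 58.4 and 52.1 in aged libraries (-0.06), and in CLPs at 93.8 and 97.8 against 97.6 and 94.7 CPM (0.01), with overlap in both. Of the exon bases of Eed 6.82% overlap a gene on the other strand, and whether the counts used strand is not given in the sources used here.

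Suz12 was called in no fraction (0 by edgeR) and had a mean log2 fold change of 0.07 ± 0.07 in MPPs, with 0.04, 0.06, 0.01 and 0.16 in MPP1 to MPP4. Its levels were 93.4 and 94.7 CPM in young and 97.2 and 96.8 in aged MPP1, 116 and 115 against 120 and 121 in MPP2, 104 and 87.4 against 113 and 79.6 in MPP3, 118 and 92.2 against 127 and 108 in MPP4, 85.8 and 82.0 against 90.9 and 88.1 in GMPs and 128 and 123 against 101 and 110 in MEPs. It was at 133 and 131 CPM in young and 101 and 90.7 CPM in aged CLPs (-0.46 ± 0.14, edgeR adjusted p 0.0204), which was not called. In HSCs it was at 61.4 and 54.7 in young and 63.1 and 49.9 CPM in aged libraries, which overlap. Jarid2, an accessory subunit that guides PRC2 to its targets, fell in the MPP mean (-0.39 ± 0.06, edgeR adjusted p 2.48e-05), was called lower in MPP3 (-0.48), a call lost without any 1 of its 4 libraries, and rose in GMPs from 66.3 and 85.0 to 129 and 115 CPM (0.69 ± 0.12, edgeR adjusted p 2.63e-04). The GMP call was lost without young GMP replicate 1.

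**Figure D4:**
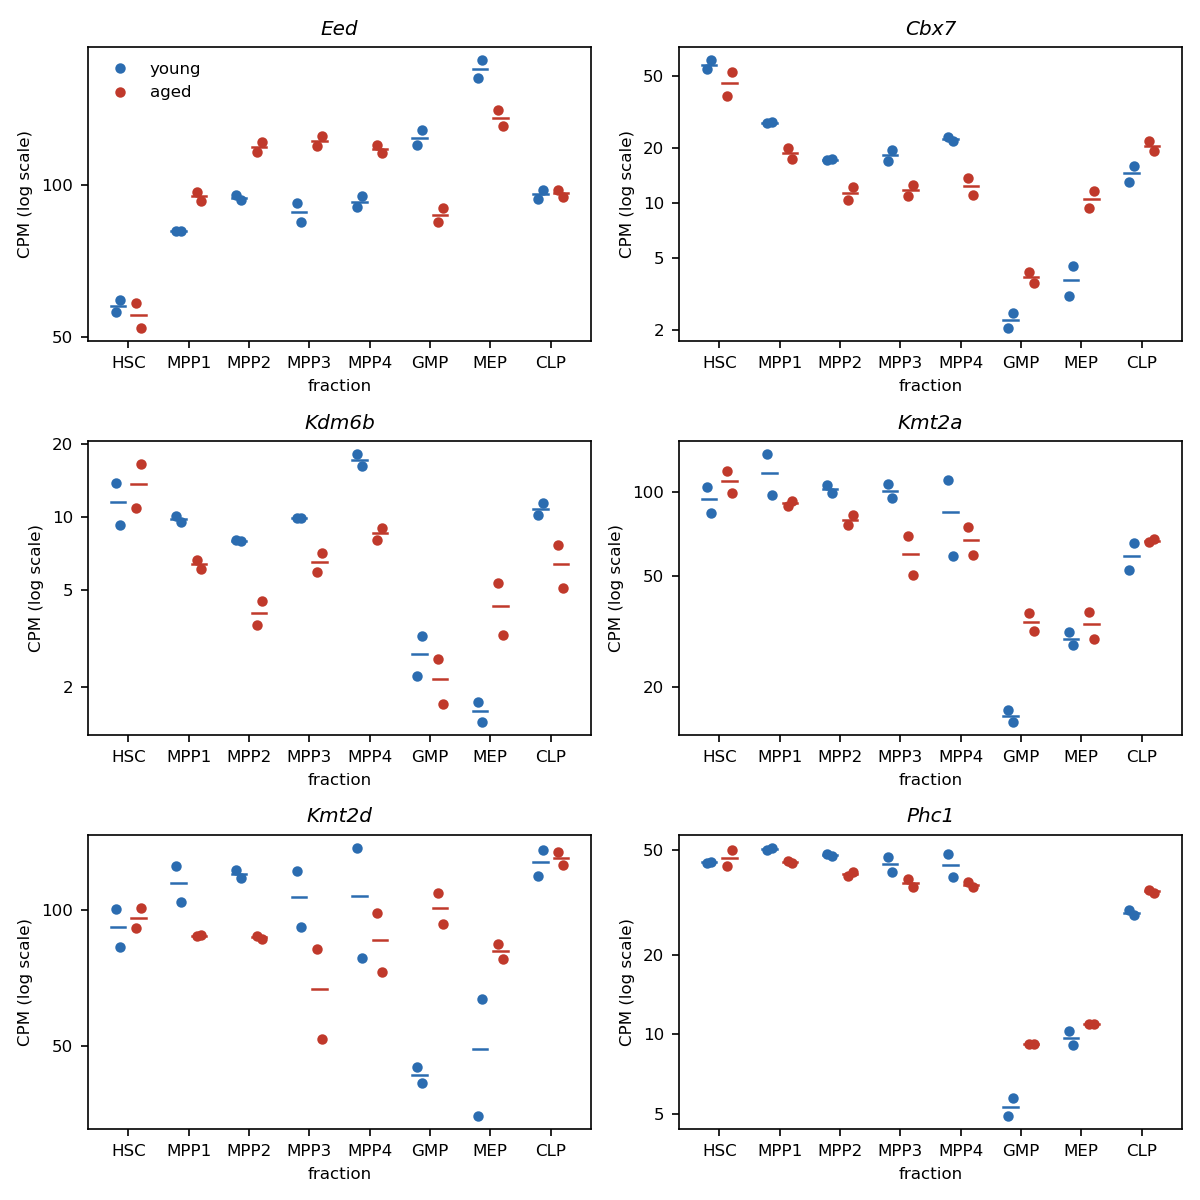
Levels of Eed, Cbx7, Kdm6b, Kmt2a, Kmt2d and Phc1 in CPM (log scale) in the 8 fractions, with 2 young (blue) and 2 aged (red) libraries and a line at each mean. Cbx7 is lower in aged than in young libraries in MPP1 to MPP4 and higher in GMPs, MEPs and CLPs, and Eed shows the reverse in MPPs, GMPs and MEPs.

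Among the readers of PRC1, Cbx7 and Cbx6 were lower in aged MPPs. Cbx7 was at 27.4 and 27.8 CPM in young and 20.1 and 17.4 in aged MPP1, 17.2 and 17.5 against 10.4 and 12.2 in MPP2, 17.1 and 19.6 against 11 and 12.5 in MPP3, and 23.0 and 21.9 against 13.8 and 11.1 in MPP4. Every aged library lay below both young ones, with a mean of -0.67 ± 0.09 (edgeR adjusted p 1.41e-06). It was called in MPP3 (-0.64) and MPP4 (-0.85), the first lost without any 1 of its 4 libraries and the second without aged MPP4 replicate 2. In aged HSCs it was at 38.7 and 52.3 CPM beside 54.6 and 60.9 CPM in young HSCs (-0.34 ± 0.16, edgeR adjusted p 0.186), not called. In MEPs it went from 3.07 and 4.52 CPM up to 9.37 and 11.6 CPM (1.47 ± 0.20, edgeR adjusted p 1.07e-05). The values in GMPs (2.07 and 2.49 against 4.21 and 3.65 CPM, 0.78 ± 0.25, edgeR adjusted p 0.0204) and CLPs (13.1 and 16 against 21.9 and 19.3 CPM, 0.50 ± 0.17, edgeR adjusted p 0.0469) lay in the same direction without overlap and were not called.

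Cbx6 fell in the MPP mean (-0.36 ± 0.06, edgeR adjusted p 1.99e-05), was called lower in MPP3 (-0.42), a call lost without any 1 of its 4 libraries, and was called lower in HSCs, at 352 and 337 CPM in young and 232 and 259 CPM in aged libraries (-0.49 ± 0.11, edgeR adjusted p 0.00578). The HSC call was lost without young replicate 1 (-0.46), young replicate 2 (-0.52) or aged replicate 1 (-0.41). Of its exon bases 5.31% are shared with Npcd on the same strand, so that the counts of the pair are uncertain. Cbx8 was low throughout, between 2.88 and 14.6 CPM, and was called in no fraction with age (0 by edgeR). It was at 10.4 and 9.06 CPM in young and 7.90 and 9.45 in aged HSCs, 8.38 and 8.58 against 6.15 and 6.89 in MPP1, 8.85 and 8.59 against 7.26 and 7.62 in MPP2, 8.54 and 8.91 against 7.63 and 6.63 in MPP3, 9.34 and 9.66 against 9.64 and 8.82 in MPP4, 11 and 11.3 against 13.4 and 13.7 in GMPs, 2.88 and 3.45 against 3.75 and 4.39 in MEPs and 9.61 and 12.2 against 11.6 and 14.6 in CLPs. Its mean in MPPs was -0.23 ± 0.08 (edgeR adjusted p 0.0230). Cbx2 was called lower in aged MEPs, at 24.8 and 29.9 CPM against 18.7 and 20.7 CPM (-0.47 ± 0.11, edgeR adjusted p 0.00199), a call lost without young MEP replicate 2 or aged MEP replicate 1.

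The catalytic subunits of PRC1 moved apart in MEPs. Ring1 rose there from 35.3 and 32.4 to 47.6 and 54.4 CPM (0.59 ± 0.11, edgeR adjusted p 2.35e-04) and Rnf2 fell from 57.9 and 70.1 to 40.7 and 38.8 CPM (-0.69 ± 0.11, edgeR adjusted p 4.85e-05). Without aged MEP replicate 2 the Ring1 call was lost. Both genes were lower in the MPP mean, Ring1 at -0.33 ± 0.05 and Rnf2 at -0.20 ± 0.05. Ring1 was called in MPP3 (-0.40) and MPP4 (-0.45), the first lost without any 1 of its 4 libraries and the second without young MPP4 replicate 2, aged MPP4 replicate 1 or aged MPP4 replicate 2. In GMPs Rnf2 was called lower (-0.49), which was lost without aged GMP replicate 2, and Ring1 was not called (0.27 ± 0.11). Bmi1, the PCGF subunit known for stem cell self-renewal, had fitted changes from -0.66 to -0.11 over the fractions and was called in GMPs only, from 50.9 and 49.6 to 31.7 and 31.7 CPM (-0.66 ± 0.17, edgeR adjusted p 0.00524), and each library left out in turn removed that call. Its values in HSCs, 86.6 and 97.6 CPM in young and 104 and 66.7 CPM in aged libraries, overlapped. Elsewhere Bmi1 was at 90.2 and 89.6 CPM in young and 72.8 and 77.3 in aged MPP1, 78.9 and 67.8 against 63.5 and 67.6 in MPP2, 79.6 and 70.9 against 74.7 and 59.0 in MPP3, 81.8 and 84.6 against 78.0 and 65.5 in MPP4, 74.2 and 57.5 against 41.6 and 52.5 in MEPs and 62.2 and 56.6 against 46.7 and 47.7 in CLPs. Aged and young libraries overlapped in HSCs and MPP3 and in no other fraction. Pcgf6 was higher in the MPP mean (0.27 ± 0.07) and lower in GMPs (-0.62 ± 0.15), the latter lost without young GMP replicate 2 or aged GMP replicate 1. The aged GMP libraries had 22.9 and 26.8 CPM of it and the young ones 35.8 and 40.4 CPM. Phc1 was higher in aged GMPs, at 4.92 and 5.74 against 9.22 and 9.17 CPM (0.79 ± 0.13, edgeR adjusted p 9.76e-05), and lower in the MPP mean (-0.22 ± 0.05). Pcgf5 (-0.18) and Phc3 (-0.43) were lower in that mean. Phc3 in CLPs was at 11.1 and 11.8 CPM in young and 19.3 and 16.4 CPM in aged libraries (0.64 ± 0.25, edgeR adjusted p 0.0778), not called.

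Of the H2A deubiquitinase complex Bap1 and Asxl1 were called with age, as was Kdm2b of a noncanonical PRC1, in committed fractions and not in the MPP mean. Asxl2, the other cofactor of Bap1, was called in no fraction, with fitted changes from -0.11 to 0.26 (0 by edgeR). Bap1, the enzyme that removes the PRC1 mark, rose in GMPs (0.30 ± 0.06, edgeR adjusted p 7.20e-04) and in MEPs from 170 and 177 to 222 and 239 CPM (0.41 ± 0.06, edgeR adjusted p 1.66e-05), while its MPP mean was -0.02 ± 0.03. Asxl1, its cofactor, rose in GMPs from 58.3 and 51.9 to 87.2 and 85.9 CPM (0.65 ± 0.15, edgeR adjusted p 0.00197). Kdm2b, which brings PRC1 to CpG islands, rose in GMPs from 73.7 and 77.7 to 124 and 107 CPM (0.61 ± 0.08, edgeR adjusted p 5.28e-06) and in MEPs (0.30 ± 0.08). Its MPP mean was -0.05 ± 0.04. Of its exon bases 5.77% overlap Rnf34 and 1.83% A930024E05Rik on the other strand, and overlaps of this kind cover 3.83% of Rnf2, 2.65% of Asxl1, 2.37% of Ash1l and 1.54% of Cbx7. The Bap1 call in GMPs was lost without young GMP replicate 1 or aged GMP replicate 2. The Asxl1 call was lost without young GMP replicate 2, aged GMP replicate 1 or aged GMP replicate 2, and the Kdm2b call in MEPs without young replicate 1, aged replicate 1 or aged replicate 2.

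Both demethylases of lysine 27 were lower in aged MPPs. Kdm6b was at 10.1 and 9.52 CPM in young and 6.65 and 6.12 in aged MPP1, 8.03 and 7.96 against 3.60 and 4.49 in MPP2, 9.93 and 9.92 against 5.96 and 7.14 in MPP3, and 18.1 and 16.3 against 8.09 and 9.04 in MPP4. No aged library reached a young one of its fraction, and Kdm6b was called in MPP4 (-1.01), a call lost without any 1 of the 4 libraries. The mean was -0.80 ± 0.13 (edgeR adjusted p 2.73e-05). In MEPs, by contrast, Kdm6b went from 1.73 and 1.44 to 5.34 and 3.27 CPM (1.43 ± 0.32, edgeR adjusted p 0.00156), where the call was lost without young MEP replicate 2 (1.31) or aged MEP replicate 1 (1.04). The X-linked Kdm6a had a mean of -0.35 ± 0.06 in MPPs (edgeR adjusted p 2.36e-05). It was also called lower in MEPs (-0.39 ± 0.11, edgeR adjusted p 0.00992), without young replicate 1 or aged replicate 1 no longer so.

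Of the 14 trithorax genes, 6 were called lower and 3 higher in the mean of aged MPPs, the lower ones large enzymes and the higher ones core subunits of the lysine 4 complexes. Kmt2c, an enhancer methyltransferase, was at 110 and 97.1 CPM in young and 66.8 and 48.5 CPM in aged MPP3 (-0.84 ± 0.21, edgeR adjusted p 0.00543), and its MPP mean was -0.67 ± 0.10 (edgeR adjusted p 1.57e-05). It was at 129 and 104 against 80.6 and 81.3 CPM in MPP1, 115 and 103 against 64.9 and 66.9 in MPP2 and 119 and 75.7 against 67.1 and 61.7 in MPP4, with no overlap. The MPP3 call was lost without young replicate 1, young replicate 2 or aged replicate 2. Kmt2d (-0.46 ± 0.12), Kmt2a (-0.45 ± 0.11), Ash1l (-0.44 ± 0.08), Setd1b (-0.44 ± 0.12) and the acetyltransferase Ep300 (-0.30 ± 0.09) were also lower in the MPP mean. Ash2l was at 103 and 109 CPM in young and 113 and 120 CPM in aged MPP1, 124 and 120 against 144 and 143 in MPP2, 123 and 126 against 137 and 169 in MPP3, and 112 and 127 against 147 and 159 in MPP4 (mean 0.26 ± 0.05, edgeR adjusted p 7.90e-05). Its call in MPP4 (0.35) was lost without young replicate 1, aged replicate 1 or aged replicate 2. Rbbp5 (0.20 ± 0.05) and Wdr5 (0.11 ± 0.03) were higher as well. Kmt2b (-0.25), Setd1a (-0.32), Crebbp (-0.42), Men1 (-0.12) and Dot1l (-0.14) were not called in that mean.

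In GMPs 2 trithorax enzymes had the largest changes among the 13 called genes. Kmt2d was at 45.1 and 41.5 CPM in young and 109 and 93.1 CPM in aged GMPs (1.22 ± 0.25, edgeR adjusted p 8.94e-04). Kmt2a was at 16.6 and 15.1 against 36.8 and 31.8 CPM (1.11 ± 0.25, edgeR adjusted p 0.00158). Aged and young libraries did not overlap for either gene. Dot1l (0.68), the lysine 79 methyltransferase, and Men1 (0.47), the menin subunit of the Kmt2a complex, were called higher too. Leaving out young GMP replicate 2 ended the calls of Kmt2d (1.16, edgeR adjusted p 0.0120) and Kmt2a (1.04, edgeR adjusted p 0.0207), as did leaving out aged GMP replicate 1 (1.10 and 1.00), and Kmt2a was also lost without young GMP replicate 1 (1.18). The Dot1l call was lost without any 1 of the 4 libraries, and that of Men1 without young replicate 1, young replicate 2 or aged replicate 1. With offsets for exon length and GC content 5 of the 13 were called, 4 higher and 1 lower, namely Phc1 (0.62), Jarid2 (0.47), Kdm2b (0.29), Kmt2a (0.75) and Eed (-0.34).

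Whether the changes with age differed between fractions was tested as the change in a fraction minus the mean change of MPP1 to MPP4. For HSCs 0 of the 40 genes were called higher, where 1.91% of all genes were, and 1 lower, where 1.10% were. At an unadjusted p under 0.05 by edgeR 8 were higher and 4 lower, and DESeq2 called 3 higher and 1 lower. The shares of all genes under these 2 settings were not counted. The 1 gene was Eed (-0.40 ± 0.08, edgeR adjusted p 0.00355), and without young HSC replicate 2 (-0.36) or aged HSC replicate 2 (-0.29) it was not called. With DESeq2 size factors 74.9% of all calls in this comparison were higher in place of 63.6%. For GMPs 16 were called higher and 4 lower, where 12.7% and 13.8% of all genes were, and for MEPs 16 higher and 5 lower, where 10.2% and 14.7% were. For CLPs 7 were higher (10.3%) and 4 lower (12.3%). These 4 comparisons share the MPP libraries.

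In GMPs minus MPPs the largest difference was that of Kmt2d (1.68 ± 0.28, edgeR adjusted p 6.48e-05), followed by Kmt2a (1.57 ± 0.27), Cbx7 (1.45 ± 0.26), Kmt2c (1.31 ± 0.25) and Jarid2 (1.09 ± 0.14). Also higher were Phc3 (1.08), Setd1b (1.04), Phc1 (1.01), Ep300 (0.92), Dot1l (0.82), Kdm2b (0.66), Ring1 (0.60), Ezh1 (0.60), Men1 (0.59), Asxl1 (0.57) and Bap1 (0.32). On the other side stood Pcgf6 (-0.88 ± 0.16), Eed (-0.85 ± 0.08), Rbbp5 (-0.53 ± 0.12) and Ezh2 (-0.34 ± 0.09). Of the 20 calls 10 were kept under each of 28 alternatives: Kmt2a, Kmt2c, Kmt2d, Cbx7, Jarid2, Phc1, Kdm2b, Eed, Pcgf6 and Rbbp5. Without aged GMP replicate 1, 12 were called.

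For MEPs minus MPPs Kdm6b (2.23 ± 0.34, edgeR adjusted p 3.20e-05) and Cbx7 (2.14 ± 0.22, edgeR adjusted p 2.01e-07) had the largest differences. Further calls were Kmt2d (1.18), Phc3 (1.08), Setd1b (1.07), Kmt2c (0.98), Ash1l (0.95), Ezh1 (0.73), Dot1l (0.64), Cbx6 (0.61), Jarid2 (0.56), Men1 (0.48), Phc2 (0.46) and Kdm2b (0.35) on the higher side and Cbx2 (-0.51), Rnf2 (-0.48), Rbbp5 (-0.42) and Ezh2 (-0.42) on the lower. Kdm6b, Cbx7, Ring1 (0.92), Bap1 (0.43) and Eed (-0.67) were the 5 of 21 calls kept under each of 28 alternatives. Without young MEP replicate 1, aged MEP replicate 1 and aged MEP replicate 2 the counts were 11, 12 and 8. The young MEP libraries also held 4 GMP markers at 243 to 268 CPM, against 24.7 to 106 CPM in the aged ones, and 4 CLP markers at 120 to 131 CPM against 0.187 to 0.430 CPM, where Cd79a, Dntt and Rag1 were at 0. Their part in the MEP results was not tested.

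In CLPs minus MPPs the largest difference was Cbx7 (1.17 ± 0.19, edgeR adjusted p 6.98e-05), with Phc3 (1.07 ± 0.28, edgeR adjusted p 0.00437), Kmt2c (1.04 ± 0.24), Ezh1 (0.93 ± 0.16) and Ezh2 (-0.77 ± 0.09, edgeR adjusted p 1.93e-06) next. The other calls were Jarid2 (0.57), Phc1 (0.49), Ring1 (0.47), Eed (-0.34), Ash2l (-0.47) and Suz12 (-0.53). Cbx7, Ezh1 and Ezh2 were kept under each of 28 alternatives. The Phc3 call was lost without young CLP replicate 1 (1.03), young CLP replicate 2 (1.12) or aged CLP replicate 1 (0.95). Without those libraries 5, 5 and 4 of the 40 genes were called in place of 11. Basophil, mast cell and B lineage transcripts were higher in young than in aged CLPs, as were the 4 GMP markers, at 1413 to 1458 CPM against 208 to 278 CPM, while Ly6a was lower in young CLPs. Their part in the CLP results was not tested. Tested over all 8 fractions at once, 20 of the 40 genes had unequal age differences, where 34.9% of all genes did.

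Other subunits and partners outside the 40 genes were read from lists of the same pathways. Their shares stand beside those of all genes, 18.9% higher and 17.7% lower in the MPP mean and 9.93% and 8.97% in GMPs. Of 33 tested Polycomb accessory subunits and partners, 6 were called higher and 6 lower in the MPP mean (18.2% and 18.2%), and 4 and 6 in GMPs (12.1% and 18.2%). A further list of 26 tested genes held COMPASS subunits and lysine 4 demethylases, and also other factors such as Setd2, Nsd1, Smyd3, Mllt3 and Aff1. Of these 26, 3 were higher and 8 lower in the MPP mean (11.5% and 30.8%). In GMPs 9 were higher (34.6%) and 0 lower by edgeR. These shares belong to the mixed list and not to COMPASS subunits and demethylases alone. Kdm5b, a lysine 4 demethylase of that list, was called lower in MPP1 to MPP4 and in MEPs (-0.43 to -0.64). Of 25 SWI/SNF subunits 6 were higher and 4 lower in the MPP mean (24% and 16%), and 5 higher (20%) and 0 lower in GMPs by edgeR. Of 14 other enzymes acting on histone H2A, lysine 9 or acetyl groups, 3 were higher and 2 lower in the MPP mean (21.4% and 14.3%).

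Of 17 tested genes known as targets of Polycomb or of Kmt2a, 9 were called lower and 0 higher in the MPP mean by edgeR, with a median of -0.61. The share lower was 52.9%, beside 17.7% of all genes. Named after their values were seen, they were Hmga2 (-2.04), Hoxa5 (-1.16), Igf2bp2 (-0.92), Cdkn1a (-0.76), Sox4 (-0.67), Cdkn1c (-0.65), Hoxa9 (-0.61), Meis1 (-0.39) and Mecom (-0.38). Cdkn1a, the p21 inhibitor of the cell cycle, was called higher in aged HSCs (0.55 ± 0.13) and lower in aged MPP1 to MPP4 and MEPs. Sox4 was called lower in HSCs, MPP1 to MPP4 and MEPs (-0.59 to -1.69) and higher in GMPs (0.39). Any link between these genes and the regulators was not tested.

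Among the 40 genes, the longer ones had a lower median change with age in the MPP mean and a higher one in GMPs. The 12 of the 40 genes with more than 10 kb of exon, a limit set after their values were seen, had a median log2 fold change of -0.43 in the MPP mean, with 12 of 12 below 0 and 9 called lower. The 28 shorter ones had a median of -0.13. Over all tested genes of any length 55.5% lay at or below 0 and 17.7% were called lower in the MPP mean. The shares among all genes over 10 kb were not counted. In GMPs the medians were 0.61 and 0.10, with 1 of the 12 below 0. The medians of the longer and shorter genes lay closer together in HSCs (0.04 and -0.08), MEPs (0.28 and 0.20) and CLPs (0.04 and -0.09). With offsets for GC content and length the median of the 40 was -0.16 in place of -0.20 in the MPP mean and 0.14 in place of 0.26 in GMPs. With the same offsets the GMP comparison had 5 calls in place of 13, and GMPs minus MPPs 10 in place of 20. The part of exon length in these changes was not tested.

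**Figure D5:**
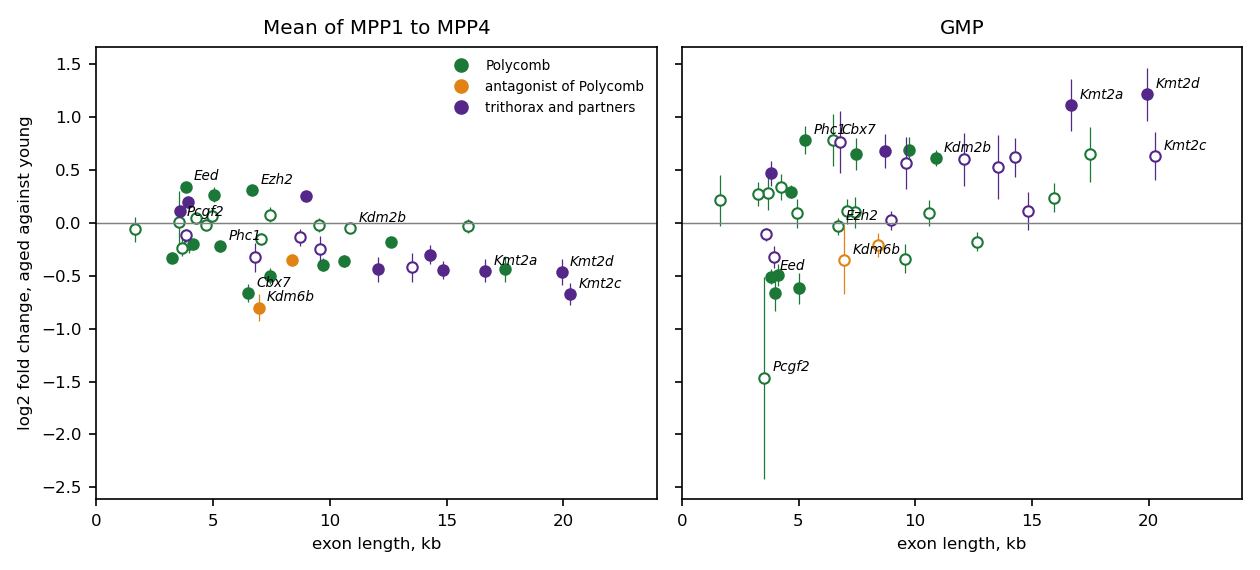
Log2 fold change of aged against young cells (vertical axis, bars for the SE) against exon length in kb for the 40 genes, in the mean of MPP1 to MPP4 (left) and in GMPs (right). Filled points are called at an adjusted p under 0.01, and colours give the role. The 12 genes over 10 kb all lie below 0 on the left, and 11 of them lie above 0 on the right. Of all tested genes, of any length, 55.5% lie at or below 0 in the comparison on the left and 52.9% in that on the right.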

How the data were processed

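RNA of 8 sorted fractions at 2 ages was sequenced in 32 libraries. The authors deposited raw counts per gene, made by them with TopHat2 2.0.13, Bowtie2 2.1.0 and StringTie on mm10, per the labels, from cDNA of a low-input kit without stated strand use. Other deposited tables, holding the authors' normalized signal and their own DESeq2 comparisons, were not used here. Columns were matched to samples by name, with 0 left unmapped. Of 24421 names 23350 matched GENCODE M21 directly, 660 through an older symbol and 411 not. Date-like names made up 27 rows with 0.188% of counts.

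Genes passing filterByExpr (14154) were fitted in edgeR 4.0.16 (R 4.3.3) with 16 group means, TMM scaling and the quasi-likelihood test with 16 residual degrees of freedom. P-values were adjusted by Benjamini-Hochberg within each contrast, two-sided, with a threshold of 0.01. The SE is the log2 fold change divided by the root of F. Scripts were tested on simulated data. The 40 genes and the lists were chosen with earlier results of these data known. Values in each library are given for Ezh1, Ezh2, Eed, Suz12, Bmi1, Cbx7 and Cbx8 whatever they were, for members called in 1 direction in at least 4 fractions, for the 2 largest called changes of each age contrast, the largest of each difference between fractions and the 2 largest in each direction of each young contrast. Other called members are given by log2 fold change. Genes outside the 40 are given where called in 1 direction in at least 5 fractions, except cell cycle genes, which are given as counts and sums. Names beyond this rule were chosen after values were seen. Over all tested genes, deviations of libraries with the same replicate number correlated by -0.056 to 0.070 within fractions, and the main fit had no replicate block. DESeq2 1.42.0, other scalings, filters, thresholds, a replicate block, offsets for GC content and length, thinning and each library left out were tried as alternatives. Counting error at these totals is small beside the spread between duplicates, except for genes with few counts such as Pcgf2. Promoters came from RefSeq for GRCm38.p6.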

Additional observations from a re-analysis of the deposited data

Results flagged for a closer look

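Changes with age that differed among the 8 fractions were found for 20 of the 40 genes by an edgeR test of all fractions at once. The same test called 34.9% of all genes. The 20 genes are listed here by their edgeR adjusted p. Among the Polycomb genes the values were 4.24e-07 for Eed, 2.26e-06 for Cbx7, 2.31e-05 for Ezh2, 3.34e-05 for Bap1, 4.78e-05 for Ring1, 5.43e-05 for Kdm2b, 1.10e-04 for Jarid2 and 1.48e-04 for Phc1. The other Polycomb genes were Ezh1 (edgeR adjusted p 7.18e-04), Cbx6 (0.00291), Cbx2 (0.00491), Phc3 (0.00628) and Pcgf6 (0.00716). Of the demethylases Kdm6b was among them (edgeR adjusted p 6.28e-04). Of the trithorax genes the edgeR adjusted p was 0.00122 for Kmt2d, 0.00122 for Kmt2c, 0.00232 for Kmt2a, 0.00622 for Ash2l, 0.00669 for Ash1l and 0.00893 for Dot1l. No cause of these differences was tested.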

How the results depend on the processing

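Counts of the 40 genes called moved most in the single fractions. Without 1 library at a time the counts ranged from 0 to 2 in HSCs, 0 to 0 for both MPP1 and MPP2, 1 to 4 for MPP3, 1 to 6 for MPP4, 6 to 8 for GMPs, 5 to 10 for MEPs and 0 to 1 for CLPs. They ranged from 16 to 26 for the MPP mean, 0 to 2 for HSCs minus MPPs, 12 to 21 for GMPs minus MPPs, 8 to 23 for MEPs minus MPPs, 4 to 11 for CLPs minus MPPs, and 10 to 20 for young CLPs against MPPs. At an adjusted p under 0.05 HSCs had 4, MPP1 to MPP4 had 5, 8, 13 and 14, MEPs 18, CLPs 5 and HSCs minus MPPs 6. With only the 4 libraries of a fraction HSCs had 0, MPP1 to MPP4 had 8, 16, 2 and 2, GMPs 2, MEPs 0 and CLPs 0. DESeq2 gave 4, 7, 11 and 12 in MPP1 to MPP4, 2 in CLPs and 4 for HSCs minus MPPs. With offsets for GC content and length there were 3 in MPP2, 5 in GMPs, 2 in CLPs, 10 for GMPs minus MPPs and 13 for MEPs minus MPPs. Thinned to the smallest library total, MPP3 had 3. The shares of all genes called under these alternatives, and under the replicate blocks given next, were not counted. The counts are therefore not read as a result about the 40 genes, and the cause of these moves was not tested.

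The replicate numbers are shared between the ages but did not pair the samples, since deviations of libraries with the same number correlated by -0.056 to 0.070. With the replicate block 2 genes were called in MPP2 and 2 in CLPs, and with a block within each fraction 2 in CLPs. With the offsets and the replicate block together the counts were 5 in HSCs, 2 in MPP1, 3 in MPP2, 6 in GMPs, 2 in CLPs, 11 for GMPs minus MPPs and 13 for MEPs minus MPPs.

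Values changed sign in 10 cases, all with the offsets, without and with the block. In young GMPs against MPPs these were Ring1 (0.039 and 0.041 in place of -0.31), Setd1b (0.14 and 0.14 in place of -0.88), Kdm2b (0.074 and 0.074 in place of -0.44) and Kmt2b (0.13 and 0.14 in place of -0.69), and in young MEPs Setd1b (0.21 and 0.21 in place of -0.74).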
